A study of Mus musculus with 2 samples.

Results

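The genes described here encode the subunits of the respiratory chain and the ATP synthase (complexes I to V), together with the nuclear genes that share their symbol stems. They were chosen by symbol alone, from 31053 genes in the count matrices, and numbered 105, of which 92 lie in the nuclear genome and 13 in the mitochondrial genome. Of the 92 nuclear members, 82 are structural subunits and 10 are not: 8 Ndufaf assembly factors of complex I, the supercomplex factor Cox7a2l and Atp5s. The hypoxia-inducible paralogue Ndufa4l2 was left out by the rule. Levels were read in organoids grown from normal bladder urothelium of wild-type C57BL/6 mice aged 8-10 weeks, with 1 single-cell RNA library per condition. The proliferative culture, NMU-O-P (P), grew in complete medium, and the differentiated culture, NMU-O-D (D), in medium from which WNT3A, RSPO1, EGF, Noggin and the TGF-β receptor inhibitor LY2157299 had been withdrawn. Both cultures were unsorted, so every stage present in a culture contributed cells, and the labels give no number of animals behind a library. With 1 library per condition there was no replicate, no test was run, and every interval is a 95% exact interval that, like the limits given for counts of 0, covers counting error only.

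The respiratory chain passes electrons from NADH through complex I, or from succinate through complex II, to ubiquinone, then through complex III and cytochrome c to complex IV, which reduces oxygen. The proton gradient built by complexes I, III and IV drives the ATP synthase, complex V. Mitochondrial DNA encodes core subunits of complexes I, III, IV and V and no subunit of complex II. All other subunits are encoded in the nucleus, made in the cytosol and imported. The mitochondrial messengers are cut from long transcripts of both strands. Most receive a poly(A) tail and can be caught by the same oligo-dT primer as nuclear messengers. The urothelium lines the bladder with basal, intermediate and superficial umbrella cells, the last of which carry plaques of uroplakins.

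A library of 3′ tags counts a messenger at its end, so the last bases of the mitochondrial coding sequences are shown for 5 members whose share of the mitochondrial unique molecular identifiers (UMIs) differed strongly between the cultures, and for mt-Nd6. The sequences are those of GENCODE M21 on GRCm38, 5′ to 3′, with the stop codon in capitals.
mt-Nd2, chrM:4922-4951, plus strand: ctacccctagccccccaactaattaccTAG
mt-Nd3, chrM:9777-9806, plus strand: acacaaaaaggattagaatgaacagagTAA
mt-Cytb, chrM:15259-15288, plus strand: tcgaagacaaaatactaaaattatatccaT
mt-Co1, chrM:6843-6872, plus strand: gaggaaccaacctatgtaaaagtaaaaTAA
mt-Co2, chrM:7667-7696, plus strand: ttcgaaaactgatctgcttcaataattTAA
mt-Nd6, chrM:13552-13581, minus strand: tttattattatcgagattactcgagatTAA
The mt-Cytb sequence stops in the first base of its stop codon, a T, and polyadenylation supplies the rest. The mt-Nd6 gene is the only mitochondrial member on the minus strand, and its end overlaps that of mt-Nd5 by 14 bases. Whether the mt-Nd6 tags began at a poly(A) tail was not tested. Other pairs overlap on the same strand, mt-Atp8 with mt-Atp6 by 43 bases and mt-Nd4l with mt-Nd4 by 7, so tags near those joints could be split between the genes of a pair.

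For the nuclear members, promoters (250 bases before to 50 after the transcription start, RefSeq, GRCm38.p6) were found for 66 of the 82 subunits. They were searched on both strands for GCGCA followed by any base and GCGC, the core of the site bound by NRF1, a known activator of nuclear respiratory genes, and for CCGGAAGT, a site of ETS factors. The NRF1 letters stood in 17 of 66 (25.8%) and in 5.19% of all 27025 genes with a promoter, and the ETS letters in 5 of 66 (7.58%) and in 4.31%. The promoters of 4 genes that hold the NRF1 letters are shown, because these genes differed in opposite directions between the cultures: Ndufa11 was higher in D and Ndufa6 lower, and within the c-ring of the ATP synthase Atp5g3 gained share in D and Atp5g2 lost it. Capitals mark the match, on either strand.
Ndufa11, chr17:56717512-56717811, plus strand: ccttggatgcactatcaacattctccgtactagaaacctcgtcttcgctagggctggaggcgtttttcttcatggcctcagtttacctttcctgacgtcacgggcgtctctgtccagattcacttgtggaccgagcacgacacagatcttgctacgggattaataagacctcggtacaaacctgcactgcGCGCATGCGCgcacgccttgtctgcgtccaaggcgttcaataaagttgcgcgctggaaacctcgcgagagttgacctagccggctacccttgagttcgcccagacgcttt
Ndufa6, chr15:82354242-82354541, minus strand: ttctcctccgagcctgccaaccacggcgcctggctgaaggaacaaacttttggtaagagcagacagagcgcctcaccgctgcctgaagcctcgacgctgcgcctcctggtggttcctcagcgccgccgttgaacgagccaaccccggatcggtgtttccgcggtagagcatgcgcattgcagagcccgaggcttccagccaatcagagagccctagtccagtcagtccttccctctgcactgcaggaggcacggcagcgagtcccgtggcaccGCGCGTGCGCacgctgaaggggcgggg
Atp5g2, chr15:102670998-102671297, minus strand: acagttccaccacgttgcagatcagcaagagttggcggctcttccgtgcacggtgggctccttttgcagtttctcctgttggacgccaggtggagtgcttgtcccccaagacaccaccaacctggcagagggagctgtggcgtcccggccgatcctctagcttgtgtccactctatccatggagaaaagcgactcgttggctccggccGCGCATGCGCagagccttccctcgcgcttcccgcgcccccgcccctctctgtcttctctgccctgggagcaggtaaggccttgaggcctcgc
Atp5g3, chr2:73911277-73911576, minus strand: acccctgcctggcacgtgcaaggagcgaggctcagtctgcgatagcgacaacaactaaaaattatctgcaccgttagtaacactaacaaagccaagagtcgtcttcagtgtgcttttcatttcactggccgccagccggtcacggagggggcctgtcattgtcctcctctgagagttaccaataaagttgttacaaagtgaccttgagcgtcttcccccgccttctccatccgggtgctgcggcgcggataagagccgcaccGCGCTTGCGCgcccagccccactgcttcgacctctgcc
A match is a description of the letters in this window, and the genes of both directions carried it.

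The deposited matrices held 8194 barcodes in P and 6975 in D. Cells with more than 800 genes and at most 12% mitochondrial UMIs, the filter stated in the study's methods, were kept, which left 6818 P cells (83.2%) and 4896 D cells (70.2%), with 26681469 and 20305621 UMIs and a median of 3406 and 3228 UMIs per cell. The libraries shared 10 barcodes, 6 of them kept. All 13 mitochondrial genes in the matrices are members, so the 12% limit bounds exactly their sum in each cell. The 8 urothelial markers, among them Krt8, Krt18, Epcam and Gata3, were detected in both libraries, and the 5 uroplakins had 548 UMIs in P and 25284 in D. Erythroid markers had 0 UMIs and muscle markers 3 and 4. The 6 fibroblast markers summed to 53 and 1270 UMIs, of which Dcn held 40 and 1234 and Col1a2 0. The 6 leukocyte markers summed to 15 and 403, of which Laptm5 held 7 and 400 and Tyrobp and Cd3e 0, and the 5 endothelial markers to 138 and 67, with Kdr, Cdh5 and Cldn5 at 0. Cytosolic ribosomal protein genes made up 39.8% of the non-mitochondrial UMIs in P and 23.0% in D. That shift moves every other level, and the median log2 ratio of D over P across the 10719 genes with at least 100 UMIs was 0.41 in counts per 1000000 UMIs (CPM). A tag is counted once per captured messenger whatever its length, so CPM of different genes are set side by side without a length correction. A ratio of a member is therefore read against 0.41, and fewer cells of a type and less RNA per cell cannot be told apart in a summed level.

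The nuclear subunits as a whole moved with the typical gene. Their sum was 21652 CPM in P (21597 to 21708) against 27268 in D (27197 to 27340), a log2 ratio of 0.33. Of the 82, 74 had at least 100 UMIs over both libraries, and their median log2 ratio was 0.41, equal to that of all genes; 62 of 74 were higher in D and 12 lower, where 77.4% of all genes were higher in D. On a scale of UMIs without mitochondrial and ribosomal protein genes the sums were 38219 in P and 38143 in D, and 47 of the 74 were higher in D. That scale shifts the log2 ratio of every gene by -0.34, and the share of all genes higher in D on it was not counted. Of the remaining 8 of the 82 subunits, 6 were at 0 in both libraries and 2 had under 100 UMIs. The mitochondrial subunits summed to 59130 CPM in P and 71334 in D, a log2 ratio of 0.27, and the median over the 13 genes was 0.44. In both genomes the medians hid a spread between complexes and genes that was wider than the difference between the genomes.

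The fold rule gave 12 members at least 2-fold higher in D: the nuclear subunits Cox5b, Ndufa4, Ndufa1, Uqcr11 and Ndufa11 (5 of 74), the assembly factor Ndufaf4 (1 of 10), and mt-Nd1, mt-Nd2, mt-Nd3, mt-Nd4l, mt-Nd4 and mt-Cytb (6 of 13). Of all genes, 13.5% passed this rule. No member was at least 2-fold higher in P, where 4.73% of all genes were. At 1.5-fold, 22 of 74 nuclear subunits, 4 of 10 other nuclear members and 6 of 13 mitochondrial members were higher in D against a background of 36.2%. In P, Ndufa6, mt-Co1 and mt-Nd6 passed 1.5-fold against a background of 8.59%. The share of nuclear subunits past either fold in D lay under the background. That background rests on all genes with at least 100 UMIs, not matched to the subunits in abundance, and the part of abundance was not tested.

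**Figure D1:**
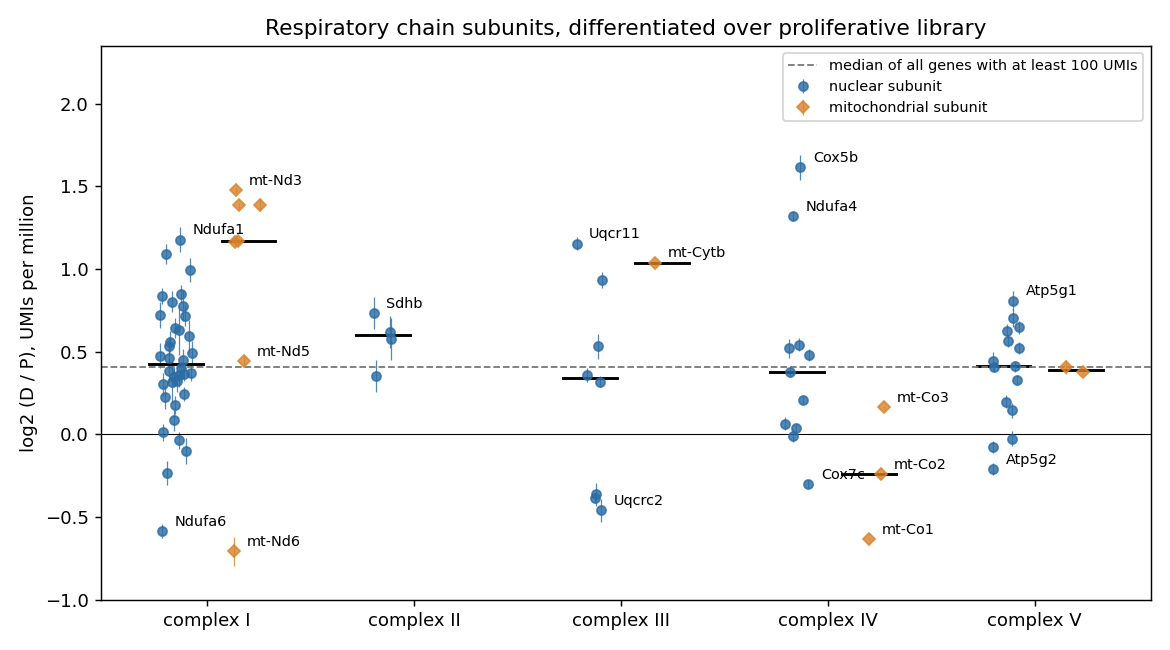
Log2 ratio of D over P (CPM) for the 74 nuclear (circles) and 13 mitochondrial (diamonds) subunits with at least 100 UMIs, by complex, with exact 95% counting intervals; black bars are medians and the dashed line is the median of all genes. The nuclear medians lie between 0.34 and 0.60, whereas the mitochondrial subunits of complexes I and III lie mostly above 1 and those of complex IV between -0.63 and 0.16.

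Complex I, which oxidises NADH, had 36 nuclear subunits among the members chosen by symbol, all measured with at least 100 UMIs, and 7 mitochondrial ones. The nuclear subunits summed to 5786 CPM in P and 7581 in D, and D had the higher level for 32 of 36 (median log2 ratio 0.43). Of all genes, 77.4% were higher in D, and the counts of subunits higher in D given below by role and complex are read against that share. For the mitochondrial subunits the sums were 8391 and 19636, and the median ratio was 1.17.

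Among the nuclear subunits of complex I, Ndufa1, an X-linked accessory subunit of the membrane arm, was at 87.3 CPM in P against 198 in D, 2.26-fold higher. Ndufa11, another membrane-arm accessory subunit, was at 125 in P and 267 in D (2.13-fold). Ndufb7 stood just under the 2-fold limit, at 99.4 and 198 (1.99-fold). Ndufa12, also an accessory subunit, was at 185 in P and 334 in D. The most abundant nuclear subunits of the complex, Ndufa7 and Ndufa6, behaved otherwise. Ndufa7 was at 353 CPM in P against 419 in D, a log2 ratio of 0.25, below that of the median gene. Ndufa6 was the nuclear subunit furthest in the other direction, at 462 in P (454 to 470) and 308 in D (300.02 to 315), a log2 ratio of -0.59 that just passed 1.5-fold in P and did not pass it once mitochondrial genes were left out of the denominator. Of the 7 core subunits encoded in the nucleus, 6 were higher in D, with a median of 0.48, and of the 29 accessory subunits 26 were, with a median of 0.39.

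The mitochondrial subunits of complex I did not move together. mt-Nd3 was at 1208 CPM in P against 3365 in D, a log2 ratio of 1.48. mt-Nd2 was at 2168 and 5662, and mt-Nd4l at 279 and 731, both with a ratio of 1.39. mt-Nd1, at 1994 and 4476, and mt-Nd4, at 1981 and 4462, both had a ratio of 1.17. mt-Nd5 had 635 in P and 862 in D, a ratio of 0.44, near the median gene. mt-Nd6, the minus-strand gene, was lower in D, at 127 CPM in P and 77.7 in D, a ratio of -0.71 (-0.79 to -0.62). Of the 7, 5 were thus more than 2-fold higher in D, one followed the typical gene and one was lower.

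Complex II, succinate dehydrogenase, links the tricarboxylic acid cycle to the chain and is wholly nuclear. All 4 subunits were higher in D, and their median of 0.60 was the highest among the nuclear complexes. Sdhb, the iron-sulphur subunit, was at 61.5 CPM in P against 102 in D (log2 ratio 0.73). Sdha, the flavoprotein, was at 60.3 and 92.8 (0.62), Sdhd, a membrane anchor, at 34.7 and 51.8 (0.58), and Sdhc, the other anchor, at 66.1 and 84.4 (0.35). They were also the least abundant structural set, with a sum of 223 in P and 331 in D.

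Complex III, which passes electrons from ubiquinol to cytochrome c, split within its 8 nuclear subunits chosen by symbol. The rule does not match Cyc1, the cytochrome c1 of the complex, which is in none of its sums or ratios. Uqcr11, a small accessory subunit, was at 326 CPM in P (319 to 333) against 725 in D (713 to 737), 2.22-fold higher. Uqcrq was at 216 in P and 414 in D (1.91-fold). Uqcr10 was at 558 and 695, a log2 ratio of 0.32. Uqcrh, the hinge protein and the most abundant nuclear subunit of the complex in P, was lower in D, at 1007 in P and 772 in D (-0.38). A further pair of subunits, named after their values were seen, were lower in D as well: Uqcrc2, a core-protein homologue of the matrix arm, with a ratio of -0.46, and Uqcrfs1, the Rieske iron-sulphur protein, with -0.36. The mitochondrial subunit mt-Cytb, the cytochrome b around which the complex is built, was at 3522 in P and 7232 in D, a log2 ratio of 1.04.

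Complex IV, cytochrome c oxidase, showed the reverse of complex I between the genomes. Its nuclear subunits summed to 6550 CPM in P and 8042 in D, whereas the 3 mitochondrial core subunits summed to 37118 in P and 31353 in D. mt-Co1, which holds the haem and copper centre where oxygen is reduced, was at 14966 in P and 9652 in D (log2 ratio -0.63). mt-Co2, which takes electrons from cytochrome c, was at 11354 and 9602 (-0.24), and mt-Co3 at 10798 and 12099 (0.16). All 3 lay below the median gene, and mt-Co3 was also lower in D on the scale without mitochondrial and ribosomal protein genes (-0.17).

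The nuclear subunits of complex IV held both of the largest nuclear ratios. Cox5b, a zinc-binding accessory subunit, was at 73.2 CPM in P (70.0 to 76.5) against 224 in D (218 to 231), 3.06-fold higher. Ndufa4, once counted with complex I and now placed in complex IV, was at 442 in P (434 to 450) and 1105 in D (1091 to 1120), 2.50-fold higher. The abundant Cox4i1 (1101 and 1131), Cox7b (497 and 495) and Cox7a2 (446 and 466) had log2 ratios from -0.01 to 0.06, and Cox8a (1078 and 1244) had 0.21. Cox6a1 and Cox6b1 were near the median gene, with ratios of 0.52 and 0.48. Read against the median gene at 0.41, Cox4i1, Cox7b, Cox7a2 and Cox8a were low and Cox5b and Ndufa4 high. Other abundant subunits, named after their values were seen, did not stay level. In CPM of non-mitochondrial UMIs, Cox6c spanned 764 to 904 over the P clusters described below and 1038 to 1159 over the D clusters. Cox7c spanned 1066 to 1267 in P and 869 to 1053 in D. Cox5b lies at chr1:36691449-36693681 and Ndufa4 at chr6:11900292-11907497 (GRCm38).

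Ndufa4 has 2 paralogues that are no members, Ndufa4l2 and AA467197, the mouse counterpart of human NMES1; AA467197 was looked at after its values were seen. In P, Ndufa4 had 11801 UMIs, Ndufa4l2 2438 and AA467197 1352, so that Ndufa4 made up 75.7% of the UMIs of the 3 genes. In D the counts were 22437, 25 and 22, and Ndufa4 made up 99.8% (99.7 to 99.8). Both paralogues were thus near 0 in the culture in which Ndufa4 was high. Over the P clusters they were spread differently: AA467197 had 1306 of its 1352 UMIs in cluster 1, whose leading genes were Sprr2f, Psca and Nccrp1, while Ndufa4l2 was split between cluster 0 (1056 UMIs) and cluster 1 (1053). A UMI of AA467197 was seen in 21.7% of cluster 1 cells and in 0.388% of D cells, with median depths of 4218 and 3228 UMIs. The lowest share of Ndufa4 among the P clusters was 70.6%, in cluster 1, and the highest 92.0%, in cluster 2, and in the D clusters it lay between 99.6% and 99.8%.

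Complex V, the ATP synthase, had nuclear sums of 6154 CPM in P and 7816 in D, and 12 of its 15 measured nuclear subunits were higher in D (median 0.41). The 2 mitochondrial subunits, mt-Atp6 and mt-Atp8, which sit beside the c-ring and in the peripheral part of the motor, had nearly the same ratio. mt-Atp6 was at 9734 in P and 12630 in D (log2 ratio 0.38) and mt-Atp8 at 365 and 484.5 (0.41). Of the most abundant nuclear subunits, Atp5e, of the central stalk, was at 702 and 882 (0.33), and Atp5l, a membrane subunit, at 640 and 848 (0.41). In the kept cells both genomes thus had nearly equal ratios in complex V. Without the 12% limit, mitochondrial UMIs per nuclear subunit UMI of complex V had a log2 ratio of 0.14, D over P.

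The c-ring, which turns as protons pass, is built from 1 mature protein encoded by 3 genes, and the genes that supplied it changed in proportion. Atp5g2 gave 60.6% of the c-subunit UMIs in P (60.0 to 61.3) and 44.1% in D (43.5 to 44.8). Atp5g1 gave 18.3% in P and 27.0% in D, and Atp5g3 21.04% and 28.9%. The sum of the 3 genes was 911 CPM in P and 1083 in D. In levels, Atp5g2 went from 552 CPM to 478, Atp5g1 from 167 to 293 and Atp5g3 from 192 to 312. Atp5g2 remained the main gene in every cluster, with shares between 58.0% and 64.8% in P and between 40.9% and 45.4% in D, so that the clusters of the 2 libraries did not overlap. Of all genes, 5.34% were lower in every D cluster than in every P cluster, as Atp5g2 was in level.

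Isoforms of complex IV subunits that mark heart and skeletal muscle, lung or testis were at or near 0. Cox4i2, Cox6a2, Cox7b2, Cox8b and Cox8c had 0 UMIs in both libraries, as did a second gene ID of Atp5o. Taking 3 counts as the limit that a count of 0 allows, Cox4i2 could hold a share of up to 0.0102% beside the 29379 UMIs of Cox4i1 in P, and up to 0.0131% in D. Cox6b2 had 25 UMIs in P and 19 in D, which is 0.203% and 0.145% of the UMIs it shared with Cox6b1. Cox7a1, the muscle form of Cox7a2, had 17 UMIs in P and 65 in D, which is 0.0561% (0.0327 to 0.0898) and 0.328% (0.254 to 0.418) of the Cox7a genes. Within the same gene group the supercomplex factor Cox7a2l held 60.7% in P and 51.9% in D and Cox7a2 39.2% and 47.8%, and Cox7a2l was at 689 CPM in P against 506 in D.

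The make-up of the mitochondrial UMIs does not depend on the scale of the levels, and it differed between the cultures. mt-Co1 made up 25.3% of the mitochondrial UMIs in P (25.2 to 25.4) and 13.5% in D (13.5 to 13.6). mt-Co2 made up 19.2% and 13.5%, and mt-Co3 18.3% and 17.0%. The 3 together held 62.8% in P and 44.0% in D, a difference of -18.8 percentage points. Of the complex I subunits, mt-Nd2 held 3.67% in P and 7.94% in D, mt-Nd1 3.37% and 6.27%, mt-Nd4 3.35% and 6.25%, mt-Nd3 2.04% and 4.72%, and mt-Nd4l 0.472% and 1.02%. mt-Cytb held 5.96% in P and 10.1% in D. mt-Atp6 (16.5% and 17.7%), mt-Atp8 (0.618% and 0.679%) and mt-Nd5 (1.07% and 1.21%) differed little, and mt-Nd6 was at 0.214% and 0.109%. The stop-proximal sequences shown above for mt-Co1 and mt-Nd2 belong to the genes with the largest loss and the largest gain of share. Genes that neighbour each other on the plus strand did not always share a direction. mt-Co3 lay next to mt-Nd3 and lost share where mt-Nd3 gained it. The neighbours mt-Co1 and mt-Co2 both lost share, and mt-Nd3, mt-Nd4l and mt-Nd4 all gained it.

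**Figure D2:**
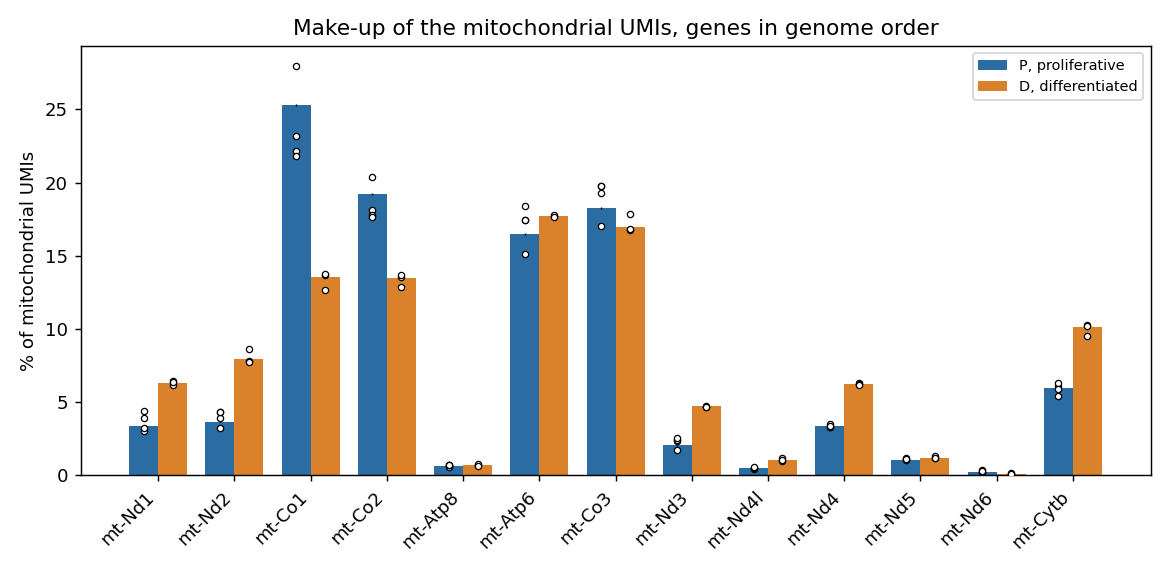
Share of each of the 13 mitochondrial genes among the mitochondrial UMIs of the kept cells (%), in genome order, with P in blue and D in orange; white points are the 4 P clusters and 3 D clusters, and counting intervals are narrower than the points. The points of P and D stay apart for mt-Co1, mt-Co2, mt-Nd1, mt-Nd2, mt-Nd3, mt-Nd4l, mt-Nd4, mt-Nd6 and mt-Cytb.

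The difference in the complex IV share was seen in each of the groups of cells compared, which were clusters, depth groups, bins of mitochondrial share and left-out barcodes. The summed share of the complex IV genes lay between 59.3% and 65.4% in the 4 P clusters and between 43.3% and 44.3% in the 3 D clusters. Over 4 equal groups of cells by depth it spanned 61.3% to 63.3% for P and 43.8% to 44.3% for D. Over bins of the cell's mitochondrial share it spanned 61.6% to 71.9% for P and 43.4% to 44.8% for D. The barcodes left out by the filter had 62.4% in P and 43.9% in D. In barcodes with over 800 genes that the mitochondrial limit left out the values were 62.8% and 43.8%, as far apart as in the kept cells. The highest P value, 71.9%, was that of the 319 cells with at most 2% mitochondrial UMIs, where mt-Co1 alone made up 38.8%, mt-Nd3 0.843% and mt-Cytb 2.94%, while mt-Nd1 was high at 6.36%. No D bin of at least 20 cells lay below 2%, so this group had no counterpart.

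In single cells the 2 cultures overlapped little. Among cells with at least 50 mitochondrial UMIs the median complex IV share was 61.7% in 6608 P cells (interquartile range 57.5% to 67.5%) and 44.0% in 4887 D cells (41.6% to 46.4%). The midpoint of the medians was 52.8%, and 6.40% of P cells lay below it and 1.43% of D cells above it. The cells of a culture share 1 library and are not replicates, so the separation describes these 2 libraries.

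**Figure D3:**
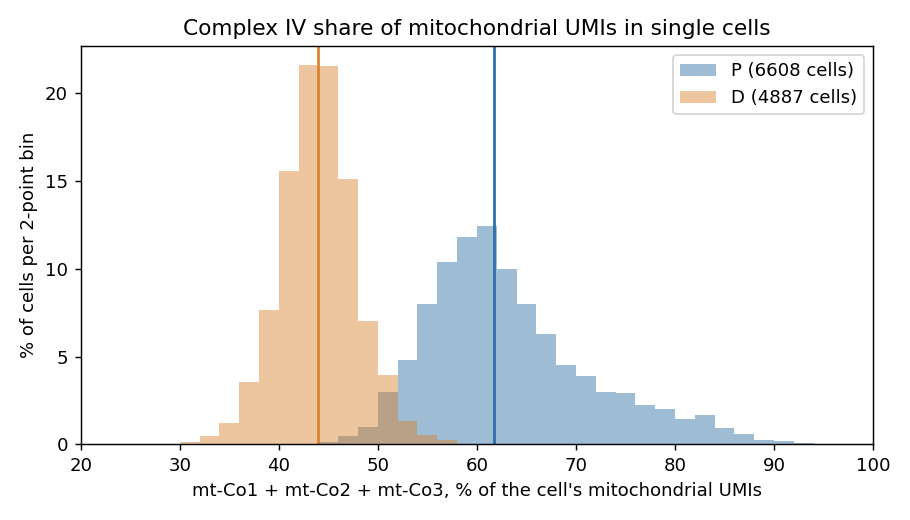
Distribution over cells of the share of mt-Co1, mt-Co2 and mt-Co3 in the cell's mitochondrial UMIs (%), as the percent of cells per bin, for 6608 P cells (blue) and 4887 D cells (orange) with at least 50 mitochondrial UMIs; vertical lines are the medians, 61.7% and 44.0%. The P distribution is wider, with a tail towards high shares.

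Set against the nuclear subunits of the same complex, the mitochondrial UMIs gave ratios that need no library scale. For complexes I, III, IV and V together there were 2.76 mitochondrial UMIs per nuclear subunit UMI in P (2.75 to 2.77) and 2.65 in D (2.64 to 2.66), a log2 ratio of -0.06. By complex the ratio was 1.45 in P and 2.59 in D for complex I (log2 0.84), 1.20 and 2.07 for complex III (0.79), 5.67 and 3.90 for complex IV (-0.54), and 1.64 and 1.68 for complex V (0.03). The small overall ratio was thus the sum of opposite parts. Its sign turned without the 12% limit, to 0.04, because 298 further D cells and 94 further P cells then entered, all with over 12% mitochondrial UMIs; the ratios by complex kept their signs, from -0.44 for complex IV to 0.93 for complex I. The capture of mitochondrial and nuclear messengers can differ, so only the change between libraries is read.

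Each library was clustered alone with the members left out of the features, which gave 4 P clusters and 3 D clusters, called by number and leading genes. The clusters of P were 0 (2575 cells, led by Ctla2a, Nbl1 and Dlk2), 1 (2482 cells, Sprr2f, Psca and Nccrp1), 2 (1405 cells, Fmo2, Mmp7 and Slc7a11) and 3 (356 cells, Nusap1, Cenpf and Hmmr, which are genes of dividing cells). Those of D were 0 (2837 cells, Krt1, Agr2 and Tspan1), 1 (1312 cells, Acta2, Htra1 and Cav1) and 2 (747 cells, Ppbp, Ankrd1 and Ifit1bl1). Nuclear subunits, in CPM of non-mitochondrial UMIs, stood at 21159, 24269, 22452 and 24375 in P clusters 0 to 3. In D they stood at 29686, 25768 and 32125 in clusters 0 to 2. All D clusters were above all P clusters on this scale, whereas without ribosomal protein genes the order mixed: the P clusters spanned 36974 to 40508 and the D clusters 33493 to 39787.

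Single nuclear subunits varied in their order of clusters. In P, 46 of the 74 (62.2%) had their highest level in cluster 3, against 42.8% of all genes, and 21 in cluster 1. The lowest level was in cluster 0 for 32 (43.2%), against 22.1% of all genes, in cluster 2 for 21 and in cluster 1 for 14. The share of all genes was not counted for highest in cluster 1 or lowest in clusters 1 and 2. In D, 55 of the 74 (74.3%, against 28.3% of all genes) were highest in cluster 2, the cluster richest in uroplakins (4201 CPM against 72.1 in cluster 1), and 59 (79.7%, against 31.9%) were lowest in cluster 1, the cluster richest in basal markers such as Krt5 (17829 CPM for the basal list). Median depth was 4017 UMIs per cell in P cluster 3 and 2835 in P cluster 0, and 4330 in D cluster 2 and 2679 in D cluster 1; its part in these counts was not tested. Among the 5 nuclear subunits past 2-fold, Ndufa4 had the widest range over the D clusters: it was at 372, 494, 500.4 and 673 in P clusters 0 to 3 and at 1170, 718 and 1740 in D clusters 0 to 2. Cox5b, in contrast, was at 70.7, 82.1, 65.6 and 117 in P and at 243, 211 and 267 in D, with little spread inside D. The clusters of the 2 libraries did not overlap for 40 of 74 nuclear subunits that were higher in every D cluster (54.1%, against 32.6% of all genes) and for 7 that were lower in every D cluster (9.46%, against 5.34%). Among the latter, and named after their values were seen, were 3 subunits of complex III, Uqcrh, Uqcrc2 and Uqcrfs1. Clusters of 1 library share its scale, so these counts describe the libraries more than the clusters. The shares of all genes in this paragraph rest on genes with at least 100 UMIs, not matched to the subunits in abundance. The part of abundance in these counts was not tested.

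**Figure D4:**
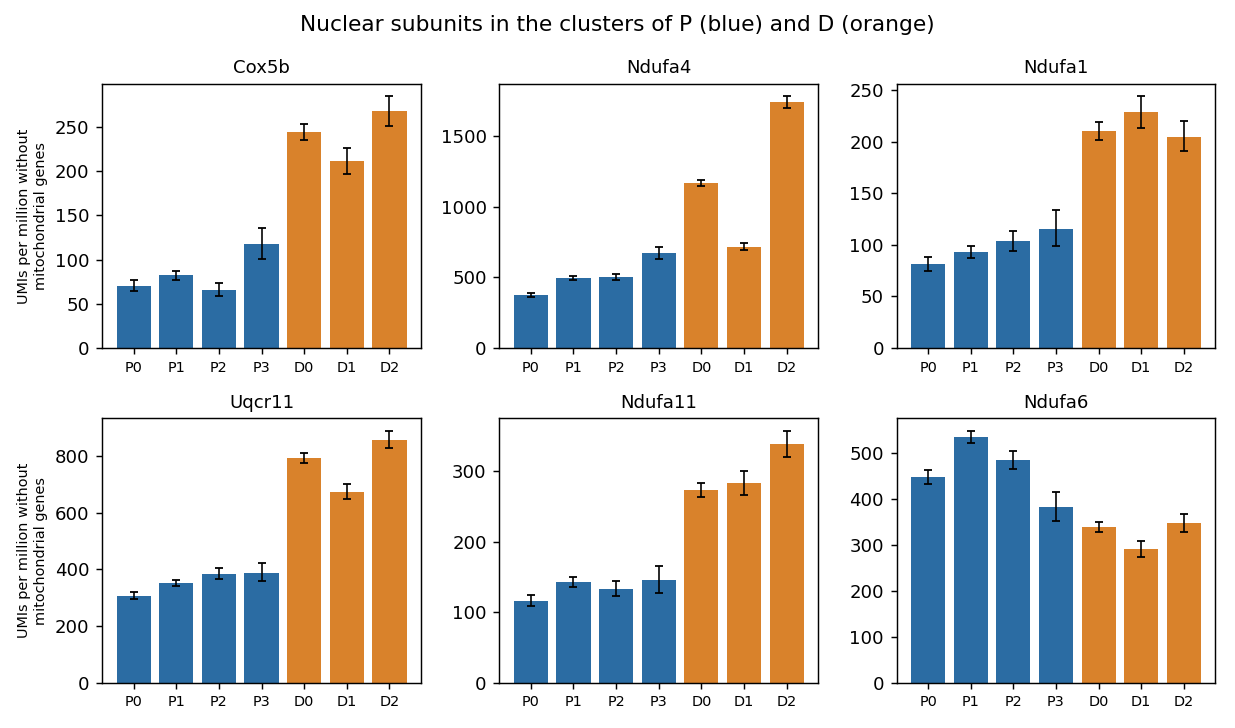
Level of the 5 nuclear subunits at least 2-fold higher in D and of Ndufa6, in CPM of non-mitochondrial UMIs, in P clusters 0 to 3 (blue) and D clusters 0 to 2 (orange), with exact Poisson 95% intervals. Every D bar lies above every P bar for the first 5 genes and below for Ndufa6; Ndufa4 reaches 1740 in D cluster 2.

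Cells were also grouped by lists that hold no respiratory gene. The 2181 D cells with at least 2 uroplakin UMIs had nuclear subunits at 30980 CPM of non-mitochondrial UMIs, and the 2047 cells with none had 26816, a log2 ratio of 0.21 (0.20 to 0.22), and 0.17 without ribosomal protein genes. Of the 74 nuclear subunits, 68 were higher in the uroplakin-positive cells, with a median of 0.17 where the median over all 9130 genes was -0.04. Ndufa4 had the largest ratio, at 1409 and 844 CPM (0.74), and was the 1 nuclear subunit at least 1.5-fold higher, against a background of 9.01%. Uqcrc1, a matrix-arm subunit of complex III, was the 1 nuclear subunit at least 1.5-fold lower, at 122 and 211 (-0.79), against a background of 8.53%. Among the mitochondrial genes 12 of 13 were higher, from 0.01 for mt-Atp8 to 0.46 for mt-Co1, and mt-Nd6 was at -0.05. The positive cells had a median of 4025 UMIs and the negative cells 2696, and with each cell thinned to 2100 UMIs before the classes were set the ratio was 0.21. The positive cells were also lower in basal markers (5398 against 14811 CPM), and the part of either list in the ratio was not tested.

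In P, 431 cells had at least 2 of 12 proliferation genes, and their nuclear subunits stood at 24521 CPM of non-mitochondrial UMIs against 22888 in the other 6387 cells, a log2 ratio of 0.10 (0.09 to 0.11). On the scale without ribosomal protein genes the ratio was 0.04. The median over 74 subunits was 0.18, near the 0.15 of all 9486 genes, and 57 were higher in the cycling cells. Ndufv1, which binds the NADH of complex I, was highest, at 94.7 and 57.4 (0.72), and with Uqcrc1, at 156 and 99.6 (0.64), made up the 2 subunits at least 1.5-fold higher, against a background of 17.5%. No subunit was 1.5-fold lower, where 8.26% of all genes were; the lowest were Ndufv3 (-0.36) and Ndufa6 (-0.34). mt-Co1 was at 13412 CPM in cycling cells and 16113 in the others. Cox5b and Ndufa4, the leading nuclear subunits in D, were also higher in cycling P cells, with ratios of 0.58 and 0.57. The genes named in these paragraphs on cell classes were chosen after their values were seen, as the extremes of each list. Their backgrounds rest on all genes with at least 100 UMIs over both classes, not matched to the subunits in abundance. Counting error alone can carry a gene near that minimum past 1.5-fold, and the part of abundance was not tested.

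The nuclear subunits changed with the mitochondrial share of the cell, with the highest level at 8 to 10%. In P they stood at 18130 CPM of non-mitochondrial UMIs in cells with at most 2% mitochondrial UMIs, at 22058 at 4 to 6%, at 26131 at 8 to 10% and at 25738 at 10 to 12%. In D they stood at 24912 at 2 to 4%, 26546 at 4 to 6%, 31703 at 8 to 10% and 29316 at 10 to 12%. The bins are set by the mitochondrial share itself, so the mitochondrial members rise over them by construction and only the nuclear level is read. The nuclear level was higher in each bin up to 8 to 10% and was already lower at 10 to 12%, within the limit. Above the limit it was lower still: at 12 to 20% it was 21556 in P (71 cells) and 22297 in D (192 cells), and at 20 to 40% it was 11422 in P (20 cells) and 8621 in D (106 cells). The ratio between 8 to 10% and 4 to 6% was 0.24 in P and 0.26 in D on the log2 scale, and 0.12 and 0.25 without ribosomal protein genes. Median depth moved with the share, from 3295 UMIs per cell in the lowest P bin to 3883 at 8 to 10%, and uroplakins in D from 377 CPM of non-mitochondrial UMIs at 2 to 4% to 2062 at 8 to 10%; their part in the trend was not tested. The mitochondrial limit acts on the very genes on the x axis, so the levels of mitochondrial members in kept cells are bounded by choice, at a highest share of 11.94% in P and 11.99% in D.

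**Figure D5:**
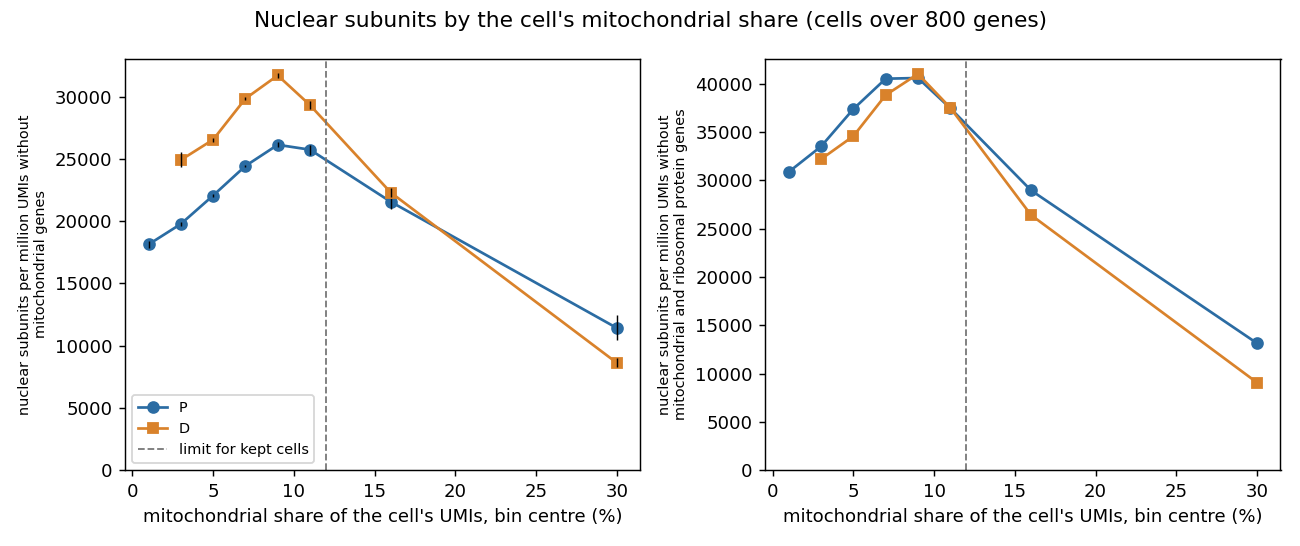
Nuclear subunits (82 genes summed) in bins of the cell's mitochondrial share (x axis, % of UMIs, plotted at the bin centre) for cells with over 800 genes, in CPM of non-mitochondrial UMIs (left, with exact Poisson 95% intervals) and without mitochondrial and ribosomal protein genes (right); the dashed line is the 12% limit. The level peaks at 8 to 10% in both libraries, at 26131 in P and 31703 in D on the left scale, and falls past the limit.

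The 10 nuclear members that are not subunits had low counts, Cox7a2l apart. Ndufaf4, an assembly factor of complex I, was at 18.6 CPM in P against 39.6 in D (2.13-fold), Ndufaf7, a methyltransferase that acts on a complex I core subunit, at 10.8 and 19.9 (1.85-fold), and the 8 Ndufaf genes together had a median log2 ratio of 0.43, near the typical gene. A list of other assembly factors, written with earlier results of these data known, gave medians of 0.28 for complex I (10 genes), 0.48 for complex II (4), 0.21 for complex III (6), 0.25 for complex IV (21) and 0.14 for complex V (5). Cox20 (log2 ratio 1.52), which guards newly made mt-Co2, and Coa7 (1.18) were the 2 past 2-fold in D, and Cmc1, which binds newly made mt-Co1, was furthest in the other direction, at 145 CPM in P and 75.8 in D (-0.93). Of the 21 complex IV assembly factors, 2 thus passed 2-fold in D and 0 in P, where 13.5% and 4.73% of all genes did. A link between these factors and the levels of mt-Co1 and mt-Co2 was not tested.

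Genes that feed or serve the chain lay near the median gene as lists. Their counts of genes higher in D are read against the 77.4% of all genes that were higher in D. Of 17 electron carriers and their makers with at least 100 UMIs, 14 were higher in D (median 0.44). They were led by Coq7 (2.01), which acts late in ubiquinone synthesis, and Cycs, cytochrome c (31.7 CPM in P and 80.1 in D). Of the 3 that were lower, Coq8a was furthest from 0, at 23.3 CPM in P and 14.5 in D (-0.68). The list also holds Cyc1, named here as a subunit of complex III outside the rule, at 77.8 CPM in P and 106 in D (0.44). Of 20 genes of the tricarboxylic acid cycle and pyruvate dehydrogenase, 19 were higher (median 0.35), with Mpc2, a subunit of the pyruvate carrier, at 1.23 and Pdha1 at -0.03. Mitochondrial ribosomal proteins had a median of 0.30 over 77 genes, from 1.03 for Mrpl20 to -0.83 for Mrpl30. Genes of mitochondrial transcription and DNA maintenance had a median of 0.37 over 20 genes, 16 of them higher, with Lrpprc, which stabilises mitochondrial messengers, at 0.94, Polg2, the accessory subunit of the mitochondrial DNA polymerase, at -0.83 (168 and 72 UMIs) and Mtpap, the mitochondrial poly(A) polymerase, at -0.21. Carriers and membrane proteins ranged from 1.77 for Chchd10 to -0.73 for Vdac1 (median 0.42). Hypoxia-linked mitochondrial genes were the exception, with a median of -0.53 over 8 genes, 3 of them at least 2-fold higher in P: Ndufa4l2 (-6.21), Bnip3, a mitophagy receptor (-2.85), and Pdk1, which restrains pyruvate dehydrogenase (-1.34). Iscu, a scaffold for iron-sulphur clusters, was the 1 gene of that list past 2-fold in D (1.29).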

How the data were processed

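The data were 2 droplet single-cell libraries (10x Genomics 3′ v3 chemistry). Per the labels and the study's methods, reads were demultiplexed with bcl2fastq 2.19.0 and processed with Cell Ranger 3.0.2 on GRCm38 (mm10), and the authors deposited the raw UMI counts per gene and cell that were used here. Cell Ranger counts reads that map to 1 gene, so reads shared with near-identical copies are lost and genes with such copies can be undercounted. Members and lists were chosen with earlier results of these data known.

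Kept cells had over 800 genes and at most 12% mitochondrial UMIs. Counts were summed over kept cells (26681469 and 20305621 UMIs) and scaled to 1000000 UMIs (CPM). Genes needed at least 100 UMIs over both libraries. Intervals were exact: Poisson for levels, conditional binomial for ratios, Clopper-Pearson for shares (95%, counting error only, since cells are not replicates). Calls were folds of 2 and 1.5. Scripts for ratios were tested on simulated data. Clusters came from Seurat 5.3.0 in R 4.3.3, per library, with 25 components in P and 21 in D, 2000 variable features less the members, and resolution 0.2. Scrublet (scanpy 1.11.5) marked 0% of the cells of both libraries and had not worked, so doublets stayed in, and an alternative left out the 5% of cells with the most UMIs.

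Named were, by rule, the 13 mitochondrial members, the 2 most abundant nuclear members per complex, the nuclear members at least 1.5-fold apart (10 in each direction at most), the alternative-subunit genes, complex II, and up to 2 genes furthest from 0 in each direction of each list. Other names are marked in the text. Alternatives covered the denominator, cell filter, UMI minimum, averaging over cells, class limits and thinning to 2100 UMIs. Promoters of 66 of 82 subunits matched by symbol. Numerical work used Python 3.11.15, scipy 1.17.1 and pandas 2.3.3. One member is counted in the totals and not reported by name here.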

Additional observations from a re-analysis of the deposited data

Results flagged for a closer look

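Barcodes over the 12% mitochondrial limit, which the comparisons do not use, were 27.3% of all D barcodes and 5.81% of all P barcodes. The barcodes left out for either reason held 20.1 mitochondrial UMIs per nuclear subunit UMI in D and 6.67 in P, whereas kept cells held 2.62 and 2.73. Ribosomal protein genes made up 9.10% of the non-mitochondrial UMIs in the barcodes left out of D and 37.3% in those left out of P, and the median depth was 885 and 1657 UMIs. The cause was not tested. The complex IV share of mitochondrial UMIs in these barcodes, 43.9% in D and 62.4% in P, was close to that of the kept cells, 44.0% and 62.8%.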

How the results depend on the processing

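With 1 library per condition no setting tests a difference. No paired analysis was possible because each group holds 1 sample. The nuclear median log2 ratio (0.41) became 0.43 without the 13 mitochondrial genes in the denominator, 0.0735 without ribosomal protein genes as well, and -0.0128 on the median-ratio scale; cell filters gave 0.40 (looser), 0.397 (stricter) and 0.38 (no mitochondrial limit). The mitochondrial median (0.44) became 0.46, 0.11 and 0.0209 on those 3 scales, 0.48 as a mean over cells, 0.48 (looser), 0.397 (stricter), 0.50 (no limit) and 0.47 without the 5% deepest cells. The mitochondrial to nuclear log2 ratio (-0.06) became -0.0685 over cells, -0.0872 (stricter) and -0.0702 (without the deepest cells), and turned to 0.00636 (looser) and 0.0386 (no limit). Members past 2-fold in D (12) were 4 without ribosomal protein and mitochondrial genes (Cox5b, mt-Nd2, mt-Nd3 and mt-Nd4l) and 2 on the median-ratio scale (Cox5b and mt-Nd3), and those in P (0) were 1 (mt-Nd6) and 3 (Ndufa6, mt-Co1 and mt-Nd6). These scales shift the log2 ratio of every gene alike, by -0.34 and -0.42. The share of all genes past 2-fold was not counted on them. The cycling ratio (0.10) was 0.0643 with at least 1 gene and 0.0422 without ribosomal protein genes. The uroplakin ratio (0.21) was 0.19 with at least 1 UMI, 0.24 with at least 5 and 0.17 without ribosomal protein genes. In a comparison also added after the data were seen, without ribosomal protein genes the highest over the lowest cluster went from 0.20 to 0.0703 in P and from 0.32 to 0.25 in D, and the 8 to 10% over the 4 to 6% bin from 0.24 to 0.12 in P. The complex IV share difference (-18.8 points), whose alternatives were added after the data were seen, was -18.5 without the deepest cells, -16.1 without P cluster 1, -17.7 as a median over cells and -18.7 after thinning. The c-subunit shares moved by less than their counting interval under both filters. Depth limits the low members: Cox7a1 rests on 17 and 65 UMIs and Cox6b2 on 25 and 19.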
